A study of Sus scrofa with 12 samples.

Results

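The genes described are 9 of the 19681 pig genes in the tables: the plasminogen activators and their receptor (PLAU, PLAUR and PLAT), an inhibitor of the activators (SERPINE2), 3 matrix metalloproteinases (MMP2, MMP7 and MMP14) and 2 tissue inhibitors of metalloproteinases (TIMP1 and TIMP3). They were looked up by their Ensembl pig gene symbols, and all 9 were found. The set was chosen on values of these same libraries, because PLAU and MMP7 had been seen to fall from day 4 to day 12. The difference between IEC12 and IEC4 is therefore given as a description with no test. PLAU and MMP7 were not tested in any comparison of IEC4 or IEC12 with another group.

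RNA sequencing was performed on porcine iPS cells under endothelial induction for 2 days (IEC2), 4 days (IEC4) and 12 days (IEC12) and on AOC, a porcine endothelial cell line that went through no induction, with 3 replicates (A, B and C) in each of the 4 groups. All IEC cells grew on Matrigel and received CHIR99021, an inhibitor of GSK3, up to day 2. IEC4 and IEC12 also received BMP4, FGF2 and VEGF up to day 4, and IEC12 then grew in EGM-2 medium with VEGF. IEC12 cells were taken before any sorting for CD31, so each library is a mixture of all the cells of its culture, and the methods call the replicates biological repeats without saying whether they were separate cultures, so a p-value measures only the spread between these samples. Levels are given in FPKM, which scales fragment numbers to transcript length and to the mapped fragments of the library, so genes can be compared per length. Differences are given as log2(FPKM + 1), a scale that shrinks the changes of weakly expressed genes.

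Cells remodel the matrix around them with linked protease systems. PLAU (urokinase) and PLAT (tissue plasminogen activator) cleave plasminogen to plasmin, a broad protease that can in turn activate metalloproteinases, and PLAUR holds urokinase at the cell surface. Serpins block the activators, and TIMPs block the metalloproteinases. Endothelial cells use these proteases when they invade and sprout, and they are a main source of PLAT in blood vessels.

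Total FPKM per library ranged from 335976 to 457194. Of 12 endothelial markers 9 were found. Their summed FPKM was 294 to 419 in AOC, and in the induced cells it was 3.27 to 5.7 at day 2, 1.74 to 2.16 at day 4 and 0.415 to 0.559 at day 12. CDH5, which encodes VE-cadherin, was listed at 0 in all 9 IEC libraries, and PECAM1, which encodes CD31, did not exceed 0.554 there, against at least 103 and 91.7 in AOC. KDR, which encodes a VEGF receptor, went the other way at day 2, at 2.45, 3.99 and 2.42 FPKM in IEC2 against 1.32, 1.31 and 1.46 in AOC, and it was at 0.302 at most in IEC4 and IEC12. An FPKM of 0 may be a failed estimate, since TUBB, a tubulin gene that every cell uses, was listed at 0 in IEC4 replicate A and at 1.16 at most, and such values are only called listed at 0 here. IEC4 replicate C stood apart from its group, with 62 of 10542 genes (0.588%) at least 2 higher on the log2(FPKM + 1) scale than the mean of replicates A and B, against 0 to 12 genes (0.0 to 0.114%) for each other IEC library against the rest of its stage. Values for IEC4 are therefore given with and without replicate C wherever it changes what they show.

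PLAU (ENSSSCG00000010312, chromosome 14, 76629313 to 76635173, pig genome Sscrofa11.1) encodes urokinase. Its FPKM was 3.73, 3.4 and 4.01 in IEC2 replicates A, B and C, 40.6, 33.3 and 621 in IEC4, 0.235, 0.638 and 0.0464 in IEC12, and 87.0, 80.6 and 72.7 in AOC. Every IEC4 library was above every IEC2 library, every IEC12 library was below every IEC2 library, and AOC lay between IEC4 replicates A and B on one side and IEC4 replicate C on the other. By the mean, the order was IEC4, AOC, IEC2 and IEC12, and only IEC4 and AOC overlapped in range. Without IEC4 replicate C, the order was AOC, IEC4, IEC2 and IEC12, with no overlap. In bulk samples such as these, fewer cells that express a gene and less RNA per cell cannot be told apart. On the log2(FPKM + 1) scale, IEC4 was 4.35 higher than IEC2, and from IEC4 to IEC12 the level fell by 6.22, all descriptive. Without IEC4 replicate C the rise was 3.0 and the level fell by 4.88. AOC against IEC2, which compares neither IEC4 nor IEC12, was tested: AOC was 4.10 ± 0.811 (SE, n = 3 against 3) higher than IEC2 (limma, adjusted p = 0.000838), a mean FPKM of 80.1 ± 7.19 (SD, n = 3) against 3.71 ± 0.303 (SD, n = 3). The spread in that test was estimated over all 12 libraries, those of IEC4 and IEC12 included. In a fit of AOC and IEC2 alone the difference was the same (limma, adjusted p = 8.86e-08). PLAU stood at the 95.1 to 95.8 percentile of the genes in AOC libraries and at the 28.1 to 48.1 percentile in IEC12 libraries.

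PLAUR (ENSSSCG00000032434, chromosome 6, 50489773 to 50505453) encodes the cell surface receptor of urokinase. Its FPKM was 12.2, 7.99 and 8.36 in IEC2, 7.39, 5.63 and 44.8 in IEC4, 0.856, 1.04 and 1.13 in IEC12, and 29.4, 39.0 and 34.0 in AOC. IEC12 was below every other library, while IEC4 replicates A and B lay below IEC2 and IEC4 replicate C above AOC. Between IEC2 and IEC12 PLAUR fell by 2.37 ± 0.594 on the log2(FPKM + 1) scale (SE, n = 3 against 3, limma, adjusted p = 0.00999). AOC was 1.75 ± 0.544 higher than IEC2 (limma, adjusted p = 0.014) and 4.12 ± 0.544 higher than IEC12 (limma, adjusted p = 4.45e-05). Between IEC2 and IEC4 the difference was 0.40 ± 0.594 (limma, adjusted p = 0.627), and without IEC4 replicate C it had the opposite sign at -0.47 (limma, adjusted p = 0.147). From IEC4 to IEC12 the level fell by 2.77, and without IEC4 replicate C it fell by 1.90, given with no test.

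PLAT (ENSSSCG00000007032, chromosome 17, 11195599 to 11223821) encodes tissue plasminogen activator, known for its part in clot lysis. Its FPKM was 23.0, 30.1 and 42.6 in IEC2, 11.3, 17.6 and 21.3 in IEC4, 6.73, 19.0 and 19.4 in IEC12, and 19.4, 35.3 and 15.1 in AOC. IEC2 lay above every IEC4 and IEC12 library, and AOC overlapped all 3 IEC stages. PLAT was the activator with the flattest profile, and its highest and lowest group means were 31.9 ± 9.94 in IEC2 and 15.1 ± 7.22 in IEC12 (SD, n = 3). Between IEC2 and IEC12 it fell by 1.12 ± 0.392 on the log2(FPKM + 1) scale (SE, n = 3 against 3, limma, adjusted p = 0.0419). This call was lost without IEC12 replicate A, where the difference was -0.66 (limma, adjusted p = 0.0929), without IEC2 replicate B (limma, adjusted p = 0.0909), without IEC2 replicate C (limma, adjusted p = 0.144), with no filter on low values (limma, adjusted p = 0.0957) and in a fit of these groups alone (limma, adjusted p = 0.0608). Between IEC4 and IEC2 the difference was -0.89 ± 0.392 (limma, adjusted p = 0.101). It passed in a fit of these groups alone (limma, adjusted p = 0.0288), with the replicate letter as a block (limma, adjusted p = 0.0118) and after median-of-ratios scaling (limma, adjusted p = 0.018). AOC was not separated from IEC2 (difference -0.48 ± 0.411, limma, adjusted p = 0.325) or from IEC12 (0.64 ± 0.411, limma, adjusted p = 0.203), though the latter passed after median-of-ratios scaling (0.91, limma, adjusted p = 0.0385).

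SERPINE2 (ENSSSCG00000016233, chromosome 15, 125748383 to 125777788) encodes protease nexin-1, a serpin that inhibits urokinase, tissue plasminogen activator and thrombin. Its FPKM was 1.92, 2.23 and 1.99 in IEC2, 8.58, 10.1 and 13.5 in IEC4, 6.6, 9.78 and 9.83 in IEC12, and 53.9, 40.8 and 38.8 in AOC. IEC2 was lowest and AOC highest with no overlap with any other group, and IEC4 and IEC12 overlapped each other. SERPINE2 rose from IEC2 to IEC4 by 1.93 ± 0.211 on the log2(FPKM + 1) scale (SE, n = 3 against 3, limma, adjusted p = 0.000128). It was still 1.66 ± 0.211 above IEC2 in IEC12 (limma, adjusted p = 0.000239). AOC was 3.89 ± 0.198 above IEC2 (limma, adjusted p = 1.31e-08) and 2.23 ± 0.198 above IEC12 (limma, adjusted p = 1.7e-06). SERPINE2 thus stayed up at day 12, at a mean FPKM of 8.73 ± 1.85 (SD, n = 3), where PLAU and PLAUR stood at their lowest. Each of these calls was kept in every alternative fit, including those without IEC4 replicate C, but only AOC against IEC2 exceeded a log2 difference of 3. The study set that limit on log2 fold changes of iPS cells against AOC, a contrast not made here.

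MMP2 (ENSSSCG00000002829, chromosome 6, 30059247 to 30087031) encodes gelatinase A, which degrades gelatin and collagen IV of basement membranes. Its FPKM was 2.54, 2.47 and 3.98 in IEC2, 6.71, 7.42 and 7.02 in IEC4, 4.36, 6.02 and 6.95 in IEC12, and 1.52, 2.06 and 1.59 in AOC. AOC was lowest, IEC2 next, and IEC4 and IEC12 were highest and overlapped each other. MMP2 rose from IEC2 to IEC4 by 1.03 ± 0.21 on the log2(FPKM + 1) scale (SE, n = 3 against 3, limma, adjusted p = 0.00422). IEC12 was 0.76 ± 0.21 above IEC2 (limma, adjusted p = 0.0156), a call lost without IEC12 replicate B (limma, adjusted p = 0.0592), IEC12 replicate C (limma, adjusted p = 0.0524) or IEC2 replicate B (limma, adjusted p = 0.0592) and with libraries scaled to equal totals (limma, adjusted p = 0.0989). The difference of AOC from IEC12 was -1.30 ± 0.192 (limma, adjusted p = 0.000111). The difference of AOC from IEC2 was -0.54 ± 0.192 (limma, adjusted p = 0.0277), a call lost without AOC replicate A (limma, adjusted p = 0.0863), AOC replicate C (limma, adjusted p = 0.0785) or IEC2 replicate C (limma, adjusted p = 0.12) and after median-of-ratios scaling (limma, adjusted p = 0.065). MMP2 was the member least touched by IEC4 replicate C, where its FPKM was 0.993 times the mean of replicates A and B.

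MMP7 (ENSSSCG00000014982, chromosome 9, 33214590 to 33225080) encodes matrilysin, a small metalloproteinase known from epithelia. It was listed at 0 in all 3 IEC2 libraries, at 24.0, 29.4 and 275 FPKM in IEC4, at 0, 0.055 and 0.0152 in IEC12, and at 0, 0.139 and 0 in AOC. It was present above 1 FPKM in the 3 IEC4 libraries and in no other library. MMP7 thus passed the filter on low values only through IEC4, and no fold is given against groups listed at or near 0. Within IEC4 it stood at the 87.7, 89.5 and 99.1 percentile of the genes of replicates A, B and C.

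MMP14 (ENSSSCG00000002039, chromosome 7, 76174502 to 76185931) encodes a membrane-bound metalloproteinase that activates pro-MMP2 together with TIMP2. Its FPKM was 0.237, 0.199 and 0.614 in IEC2, 0.62, 0.565 and 1.17 in IEC4, 0.0403, 0.171 and 0.146 in IEC12, and 0.251, 0.412 and 0.165 in AOC. Only IEC4 replicate C exceeded 1 FPKM, so MMP14 did not pass the filter and was not tested. Each group overlapped its neighbour in the order of the means, IEC4, IEC2, AOC and IEC12, and every IEC12 library was below every IEC2 and IEC4 library. MMP2 exceeded MMP14 in every library, by 5.01 to 13.1 times in IEC2, IEC4 and AOC and by 35.2 to 108 times in IEC12.

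TIMP1 (ENSSSCG00000012277, chromosome X, 42103251 to 42106289) encodes a secreted inhibitor of most metalloproteinases. Its FPKM was 239, 175 and 192 in IEC2, 115, 133 and 390 in IEC4, 58.4, 84.9 and 78.5 in IEC12, and 77.6, 74.9 and 76.5 in AOC. IEC2 was above IEC12 and AOC in every library, IEC12 and AOC overlapped, and IEC4 replicates A and B lay between these levels while IEC4 replicate C was above all. Between IEC2 and IEC12 TIMP1 fell by 1.44 ± 0.391 on the log2(FPKM + 1) scale (SE, n = 3 against 3, limma, adjusted p = 0.0145). AOC was lower than IEC2, with a difference of -1.38 ± 0.357 (limma, adjusted p = 0.00497), and not separated from IEC12 (0.06 ± 0.357, limma, adjusted p = 0.896). Between IEC4 and IEC2 the result rested on 1 library: the difference was -0.14 ± 0.391 (limma, adjusted p = 0.798) with all libraries and -0.69 (limma, adjusted p = 0.0284) without IEC4 replicate C.

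TIMP3 (ENSSSCG00000031866, chromosome 5, 12185816 to 12242599) encodes the TIMP that binds to the matrix and also inhibits ADAM proteases. Its FPKM was 2.67, 2.51 and 2.36 in IEC2, 7.74, 8.69 and 19.4 in IEC4, 0.993, 0.942 and 1.33 in IEC12, and 3.78, 25.9 and 11.9 in AOC. IEC4 and AOC overlapped and lay above every IEC2 library, and IEC12 lay below every other library. AOC varied most, from 3.78 to 25.9 FPKM among replicates. TIMP3 rose from IEC2 to IEC4 by 1.77 ± 0.293 on the log2(FPKM + 1) scale (SE, n = 3 against 3, limma, adjusted p = 0.00139), and by 1.39 without IEC4 replicate C (limma, adjusted p = 0.000936). AOC was 1.75 ± 0.499 above IEC2 (limma, adjusted p = 0.00878) and 2.51 ± 0.499 above IEC12 (limma, adjusted p = 0.00104). IEC12 was -0.76 ± 0.293 from IEC2 (limma, adjusted p = 0.0614). That difference passed without IEC4 replicate C, whose spread the fit shares (limma, adjusted p = 0.00592, chosen after seeing the data), with a pseudocount of 0.1 (limma, adjusted p = 0.0226), in a fit of these groups alone (limma, adjusted p = 0.00939), after median-of-ratios scaling (limma, adjusted p = 0.0447) and at equal totals (limma, adjusted p = 0.0246).

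**Figure D1:**
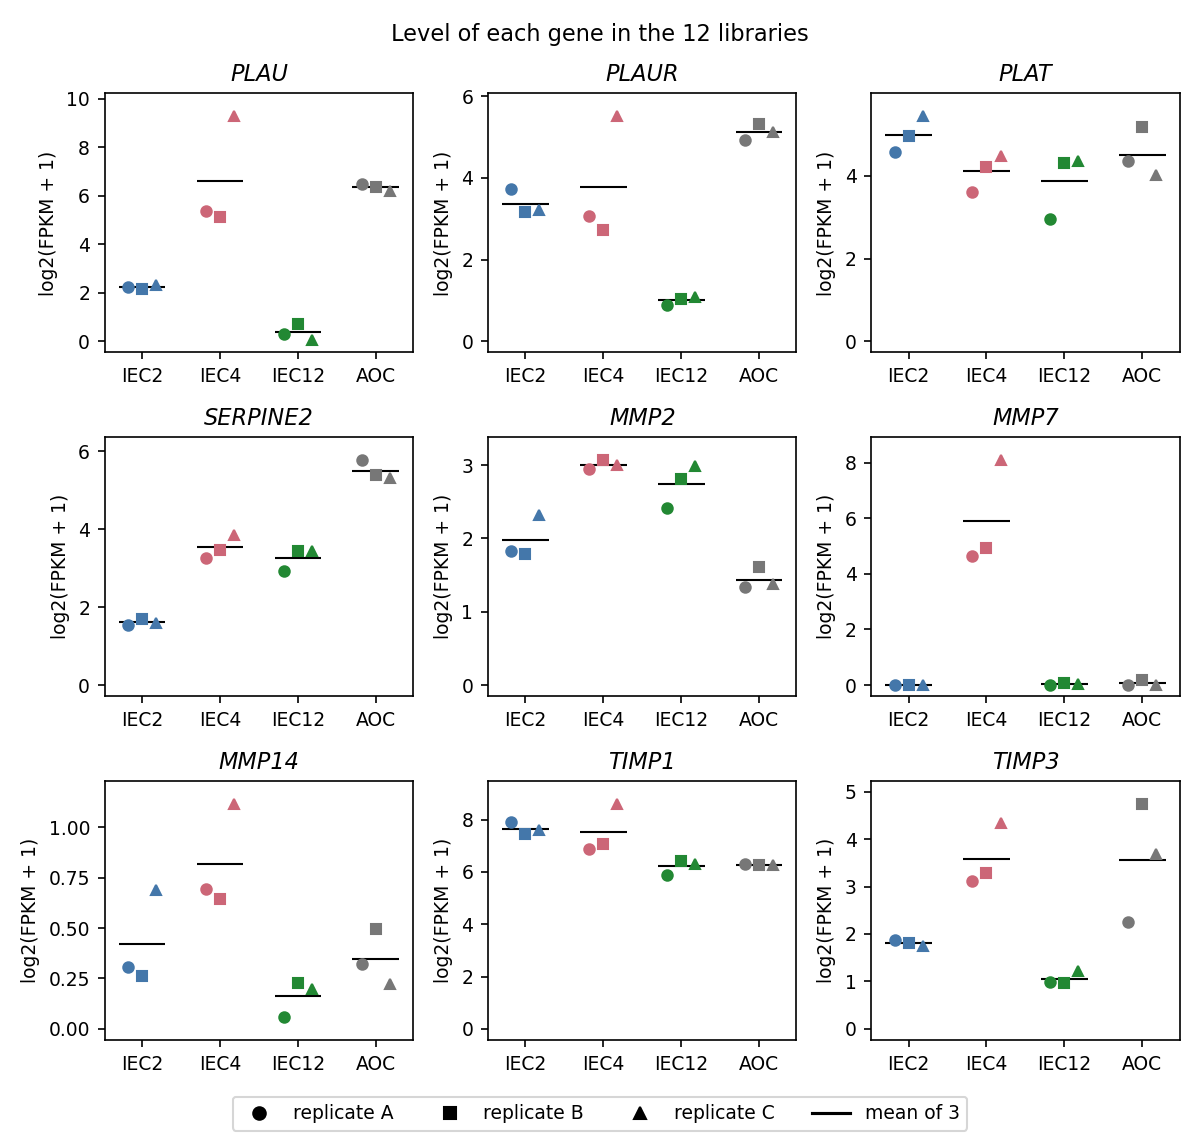
Level of each of the 9 genes as log2(FPKM + 1) on the vertical axis of its own panel, for IEC2, IEC4, IEC12 and AOC, with 1 point per library shaped by replicate letter and a line at the mean of the 3. MMP7 is above the baseline only in IEC4, SERPINE2 is lowest in IEC2 and highest in AOC, and IEC4 replicate C (triangle) stands above the other IEC4 replicates in the panels of PLAU, PLAUR, MMP7, MMP14, TIMP1 and TIMP3.

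Some members overlap other genes in the Sscrofa11.1 annotation of RefSeq, and since it is not stated whether reads were counted by strand, reads of overlapping genes may not be told apart. PLAU overlaps CAMK2G, whose FPKM was 14.0 to 17.7 in IEC4, 8.32 to 10.5 in IEC2, 4.29 to 8.66 in IEC12 and 7.43 to 9.89 in AOC. CAMK2G thus also had its highest mean in IEC4 and its lowest in IEC12, though its values in IEC2 and AOC overlapped and IEC4 replicate C, at 15.5, did not stand out. Its part in the level of PLAU was not tested. TIMP1 lies within SYN1 and TIMP3 within SYN3. SYN1 did not exceed 0.17 FPKM and SYN3 was listed at 0 in all libraries. PLAU and PLAUR also overlap unnamed loci that were not examined.

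Of the 9 members, 8 passed the filter on low values in both fits, and the counts below are over those that were tested. The comparisons share libraries, so each one's values are given on their own. In IEC4 against IEC2, 6 members were tested. SERPINE2, MMP2 and TIMP3 were higher and 0 were lower in limma (1, PLAT, at an unadjusted p under 0.05), beside 24.8% of all 10542 genes tested that were higher and 12.5% that were lower. After median-of-ratios scaling the split was 3 higher and 1 lower. In IEC12 against IEC2, 6 members were tested. SERPINE2 and MMP2 were higher, and PLAUR, PLAT and TIMP1 were lower, beside 24.2% of all genes higher and 19.3% lower. That split was 1 higher and 4 lower at equal totals, and 1 higher and 2 lower without IEC2 replicate B.

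In AOC against IEC2, 8 members were tested, among them MMP7, which was at or near 0 in both groups and could not have been called. PLAU, PLAUR, SERPINE2 and TIMP3 were higher and MMP2 and TIMP1 lower in AOC, beside 26.7% of all 11053 genes tested that were higher and 37.1% that were lower. The split was 4 higher and 1 lower after median-of-ratios scaling. In AOC against IEC12, 6 members were tested. PLAUR, SERPINE2 and TIMP3 were higher and MMP2 was lower, beside 22.4% of all genes higher and 36.2% lower. From IEC4 to IEC12, the contrast in which PLAU and MMP7 were noticed, the log2(FPKM + 1) mean of the other 6 members that passed the filter was also lower in IEC12, beside 57.7% of all genes with a lower mean, so a lower mean is not particular to them. PLAT was not lower in every fit, with a difference of 0.23 without IEC12 replicate A and of 0 after median-of-ratios scaling. In that contrast the log2(FPKM + 1) difference was -2.53 for TIMP3 and -1.30 for TIMP1, while it was -0.27 for both SERPINE2 and MMP2 and -0.23 for PLAT. Without IEC4 replicate C it was -2.14 for TIMP3, -0.75 for TIMP1, -0.10 for SERPINE2, -0.27 for MMP2 and -0.04 for PLAT.

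**Figure D2:**
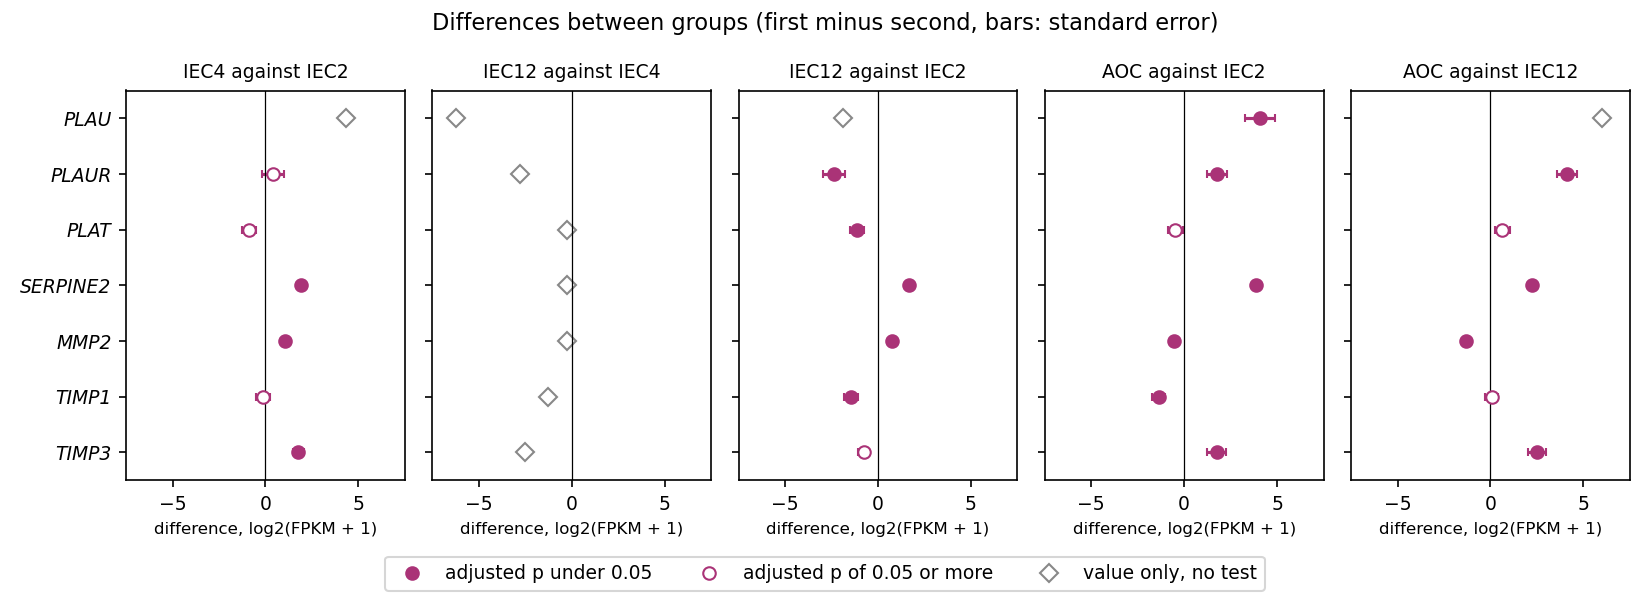
Difference between groups on the log2(FPKM + 1) scale (horizontal axis, first group minus second) for 7 members in each of 5 comparisons. Filled circles passed an adjusted p of 0.05 in limma, open circles did not, bars are standard errors, and grey diamonds are values with no test. MMP7 is left out because its level is at or near 0 in 3 of the 4 groups, and MMP14 because it did not pass the filter. SERPINE2 lies right of 0 in each tested comparison.

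Within a library, ratios of FPKM between genes do not depend on how the library was scaled. PLAU exceeded its receptor in AOC, at 2.95, 2.07 and 2.14 times PLAUR, and in IEC4, at 5.49, 5.9 and 13.9 times. It was below PLAUR in every IEC2 library, at 0.305 to 0.48 times, and in every IEC12 library, at 0.0411 to 0.613 times. PLAU also exceeded PLAT in IEC4 and AOC only, by 1.89 to 29.2 times, and was 0.00239 to 0.162 times PLAT in IEC2 and IEC12, so PLAT was the more abundant activator transcript at day 2 and day 12.

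The balance of inhibitor to protease transcripts differed by group. The FPKM of SERPINE2 over the sum of PLAU and PLAT was 0.0718, 0.0667 and 0.0426 in IEC2, 0.165, 0.199 and 0.021 in IEC4, 0.948, 0.497 and 0.505 in IEC12, and 0.506, 0.352 and 0.442 in AOC. IEC2 and IEC4 overlapped at the bottom, IEC12 and AOC overlapped at the top, and no library of the first pair of groups reached the second. The overlap of IEC2 and IEC4 came from IEC4 replicate C alone, and IEC4 replicates A and B lay above every IEC2 library. The sum of TIMP1 and TIMP3 over that of MMP2, MMP7 and MMP14 was 87.1, 66.5 and 42.3 in IEC2, 3.92, 3.77 and 1.44 in IEC4, 13.5, 13.8 and 11.2 in IEC12, and 46.0, 38.6 and 50.3 in AOC. IEC4 was lowest, IEC12 next, and IEC2 and AOC overlapped at the top. The IEC4 value rests largely on MMP7, which was selected for its level there, and these ratios are descriptions. TIMP1 alone made up 75.1 to 83.8% of the summed FPKM of the 9 genes in IEC2 and 66.9 to 74.7% in IEC12, against 25.0 to 30.5% in AOC. In IEC4 its share was 51.8, 54.0 and 28.0% in replicates A, B and C, the last within the range of AOC. PLAU made up 26.9 to 31.9% in AOC and 0.0395 to 0.521% in IEC12.

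**Figure D3:**
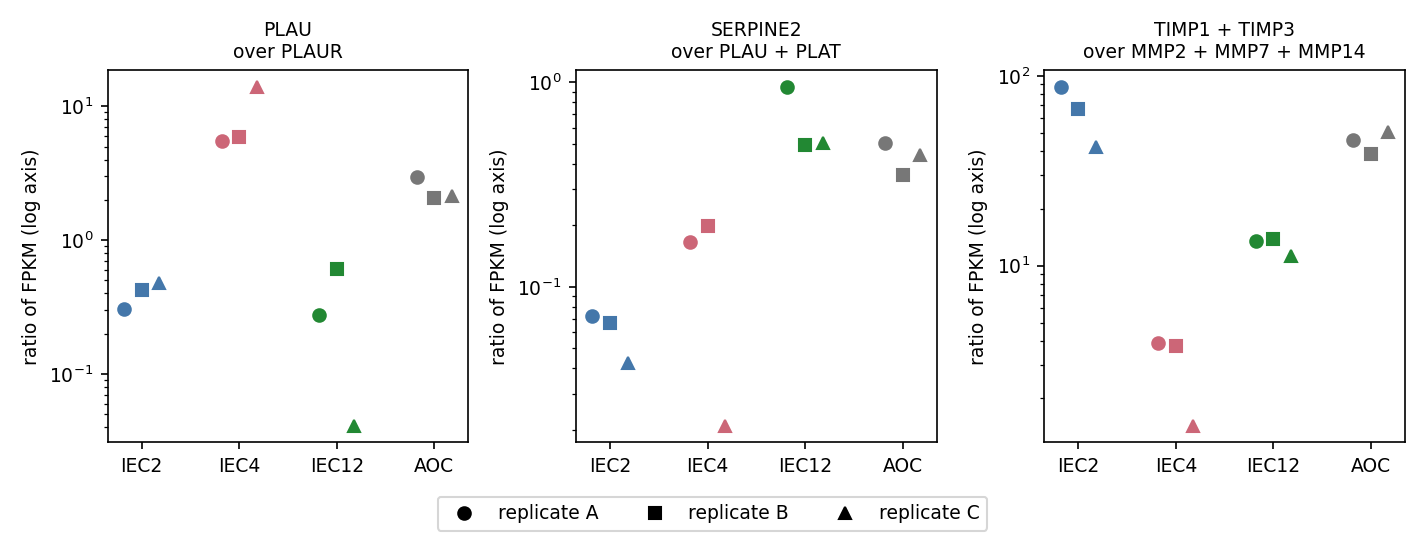
Ratios of FPKM within each library on log axes, for PLAU over PLAUR, SERPINE2 over the sum of PLAU and PLAT, and TIMP1 and TIMP3 over MMP2, MMP7 and MMP14, with 1 point per library. IEC4 is highest in the first panel and lowest in the third, where its libraries lie at 1.44 to 3.92, and IEC12 and AOC are above IEC2 and IEC4 in the second, at 0.352 to 0.948.

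IEC4 replicate C carried more of most members than replicates A and B. PLAU was 16.8 times the mean of A and B there, the largest excess on the log2(FPKM + 1) scale among the 10542 genes tested in the IEC libraries. MMP13, which did not pass the filter, had a larger excess (5.18 against 4.04). MMP7 was 10.3 times, an excess that 4 genes reached with itself included, and PLAUR was 6.89 times, reached by 24 genes. PLAU and MMP7 were picked for a fall from IEC4, a group that holds this library, so their ranks are descriptions only. TIMP1 was 3.15 times and TIMP3 2.36 times higher, PLAT 1.47 times and SERPINE2 1.45 times. Epithelial markers moved with this library: 6 of 7 were found, their summed FPKM was 519 and 678 in IEC4 replicates A and B and 1434 in replicate C, and CDH1, which encodes E-cadherin, was 6.09 times the mean of A and B. Across groups the same markers summed to 108 to 144 in IEC2, 41.8 to 86.6 in IEC12 and 2.25 to 4.08 in AOC, so their sum was also highest in the stage where MMP7 was detected. In IEC2, 4 of the 6 were below 1 FPKM in all libraries, and CLDN7 was at 0.0226 at most in IEC4. This peak was not particular to epithelial markers. Pluripotency markers (2 of 7 found) summed to 4.17, 3.3 and 6.39 in IEC4 and to 1.52 at most elsewhere, though NANOG had its highest mean in IEC12. The part of either set of markers in the levels of PLAU and MMP7 was not tested. Fibroblast and smooth muscle markers (9 of 10 found) summed to 50.2 to 63.4 in IEC4, 80.4 to 112 in IEC2, 61.4 to 79.5 in IEC12 and 22.9 to 36.3 in AOC, and leukocyte markers (5 of 5 found) to 3.39 to 9.67 in all libraries. These sums hide genes that moved apart. COL3A1 was at 66.0 to 108 FPKM in IEC2 and 40.6 to 52.9 in IEC4. COL1A1 was at 0.273 to 0.381 in IEC2 and 2.18 to 9.86 in IEC4, and ACTA2 was also higher in every IEC4 library than in IEC2. PTPRC was at 0.0258 at most in IEC2 and 2.14 to 3.49 in IEC4, while SPI1 was at 5.35 to 9.16 and 1.22 to 1.79.

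**Figure D4:**
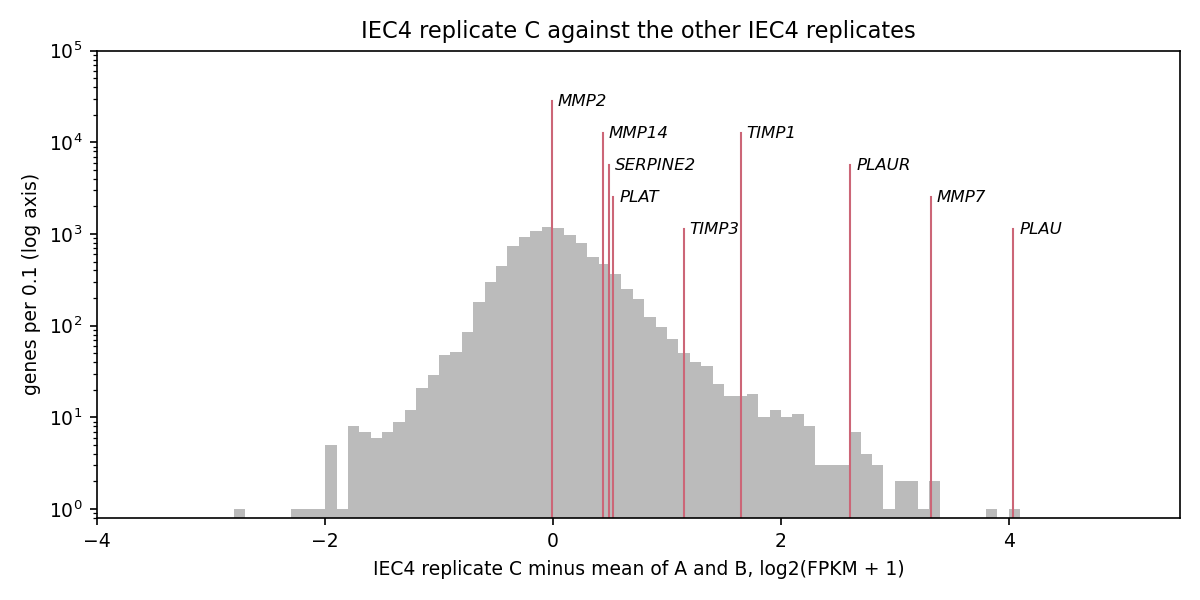
Number of genes (vertical log axis) by the difference between IEC4 replicate C and the mean of replicates A and B on the log2(FPKM + 1) scale, over the 10542 genes tested in the IEC libraries, with the 9 members marked by vertical lines whose heights carry no value. PLAU at 4.04 is at the far right end, followed by MMP7 at 3.32 and PLAUR at 2.61, while MMP2 at -0.01 sits in the middle. PLAU and MMP7 were picked for a fall from IEC4, so their places are descriptions only.

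The other genes of pericellular proteolysis were taken from a written list of 46 genes, of which 39 were found in the tables. The filter left 16 of them in the fit of the IEC stages and 19 in the fit with AOC. In each fit 4 of these reached 1 FPKM in the libraries of 1 group alone, MMP19 and ADAM8 in IEC4 and TIMP4 and MMP24 in IEC12 in the fit of the IEC stages, and SERPINB2 in AOC, ADAM8 in IEC4 and TIMP4 and MMP24 in IEC12 in the fit with AOC. The filter admitted such a gene through the group where it is high, so its values are given with no test, and each count is also given over the others. In IEC4 against IEC2, 2 of 16 were higher and 3 lower, beside 24.8% and 12.5% of all genes, and their median log2 difference was 0.18, beside 0.20 over all genes tested. Over the other 12 genes 0 were higher in limma (1 at an unadjusted p under 0.05) and 3 lower, beside 23.2% and 12.4% of the 10132 genes left by the same exclusion, so both of the higher calls were of genes that the filter had admitted in that way. MMP19, a metalloproteinase of basement membrane substrates, was at 0.266, 0.322 and 0.335 FPKM in IEC2 and at 2.0, 2.2 and 2.56 in IEC4. ADAM8, a membrane-bound metalloprotease, was at 2.11, 2.9 and 11.8 FPKM in IEC4 and under 1 in every IEC2 and IEC12 library. The plasminogen receptor gene PLGRKT fell by 0.87 ± 0.156 (limma, adjusted p = 0.00224). ENO1 fell by 0.93 (limma, adjusted p = 0.0224), a call lost without any 1 of the 6 libraries (limma, adjusted p = 0.0529 to 0.0642) and with no filter on low values (limma, adjusted p = 0.0653). ADAMTS1 fell by 0.89 (limma, adjusted p = 0.0498), a call lost without IEC4 replicate A or B or IEC2 replicate B or C (limma, adjusted p = 0.122 to 0.174). That call was also lost with a pseudocount of 0.1 (limma, adjusted p = 0.0607), with no filter (limma, adjusted p = 0.101) and in a fit of these groups alone (limma, adjusted p = 0.0685). The total of 5 calls was 1 without IEC4 replicate A or IEC4 replicate B, 2 without IEC4 replicate C or IEC2 replicate B, and 3 without IEC2 replicate C. Without any 1 IEC4 library, MMP19 and ADAM8 did not pass the filter, so in those fits they were not tested.

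From IEC4 to IEC12, 5 of 16 of these genes were higher and 8 lower, beside 17.3% and 26.9% of all genes, and their median difference was -0.52 beside -0.15 over all genes. Over the other 12 genes 3 were higher and 6 lower, beside 17.3% and 25.4%. The membrane proteases ADAM15 (-1.61) and ADAM9 (-1.38) and the metalloproteinase MMP11 (-1.16) fell, each passing the test. S100A10, a partner of ANXA2 in binding plasminogen, rose from 1.09, 1.4 and 1.03 FPKM to 4.09, 3.38 and 3.9 (difference 1.14 ± 0.174, limma, adjusted p = 0.000895). The 13 calls were 8 without IEC12 replicate A and 7 without IEC12 replicate B or IEC4 replicate B, and the split was 3 higher and 8 lower at equal totals. MMP11 was among those lost in each of these 3 fits (limma, adjusted p = 0.065, 0.0513 and 0.083). Part of the drop came from the filter. TIMP4 and MMP24 were not tested without an IEC12 library, nor MMP19 and ADAM8 without an IEC4 library. In IEC12 against IEC2, 4 of 16 were higher and 5 lower, beside 24.2% and 19.3% of all genes, with a median of -0.32 beside 0.03. Over the other 12 genes 2 were higher and 5 lower, beside 24.4% and 19.4%, and their median was -0.71. Over all 16 the split was 3 and 8 at equal totals and the total 5 without IEC12 replicate B, a fit in which TIMP4 and MMP24 were not tested. ENO1 fell by 2.04, ADAM9 fell by 1.46 and ADAM15 fell by 1.41, each passing the test. TIMP4, an inhibitor of the TIMP family, was at 0 to 0.426 FPKM in IEC2 and at 1.62, 1.76 and 2.01 in IEC12. The membrane-bound metalloproteinase MMP24 was at 1.68, 2.42 and 1.91 FPKM in IEC12 and under 1 in every other library.

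In AOC against IEC2, 8 of 19 of these genes were higher and 3 lower, beside 26.7% and 37.1% of all genes, with a median of 0.31 beside -0.20 over all genes. Over the 15 genes that reached 1 FPKM in libraries of more than 1 group, 7 were higher and 3 lower, beside 25.6% and 38.2% of 10508 genes, and their median was 0.50. The higher ones included ADAM19 and ADAMTS5, for which the AOC libraries alone met the filter. In AOC against IEC12, 11 of 19 were higher and 3 lower, beside 22.4% and 36.2% of all genes, with a median of 0.69 beside -0.21. Over the same 15 genes 10 were higher and 1 lower, beside 21.0% and 37.1%. Over all 19 the first split was 7 and 6 at equal totals, and the second total fell from 14 to 9 without IEC12 replicate B. TIMP4 and MMP24 did not pass the filter in that last fit and were not tested there. SERPINB2, which encodes PAI-2, was at 16.3, 8.24 and 25.0 FPKM in AOC and listed at 0 in every IEC2 and IEC12 library, so it has no test. ANXA2 and S100A10 form a complex that binds plasminogen and PLAT at the endothelial surface. ANXA2 was 3.72 ± 0.249 above IEC2 in AOC (limma, adjusted p = 1.19e-07), at 1627, 1860 and 1725 FPKM, and S100A10 was 2.99 ± 0.211 above (limma, adjusted p = 1.86e-07). Against IEC12 these differences were 3.43 and 2.02. The membrane protease gene ADAM19 was at 2.51 to 3.06 FPKM in AOC, 0.0606 at most in IEC2 and 0.145 at most in IEC12. Outside AOC only IEC4 replicate C, at 1.75, reached 1 FPKM. The matrix protease gene ADAMTS5 was at 2.14 to 2.63 FPKM in AOC and 0.286 at most in IEC12, and outside AOC only IEC2 replicate B, at 1.25, reached 1 FPKM. The AOC libraries alone met the filter for both genes, so their values are given with no test. Both are among the 15 genes above and were counted as higher in both comparisons, so the counts of 7 and 10 include calls of genes admitted through the group where they are high. ENO1, a glycolytic enzyme also known as a plasminogen receptor, was lower in AOC than in IEC2, with a difference of -2.78 ± 0.253 (limma, adjusted p = 1.57e-06). Plasminogen itself (PLG) did not exceed 0.00774 FPKM in any library.

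**Figure D5:**
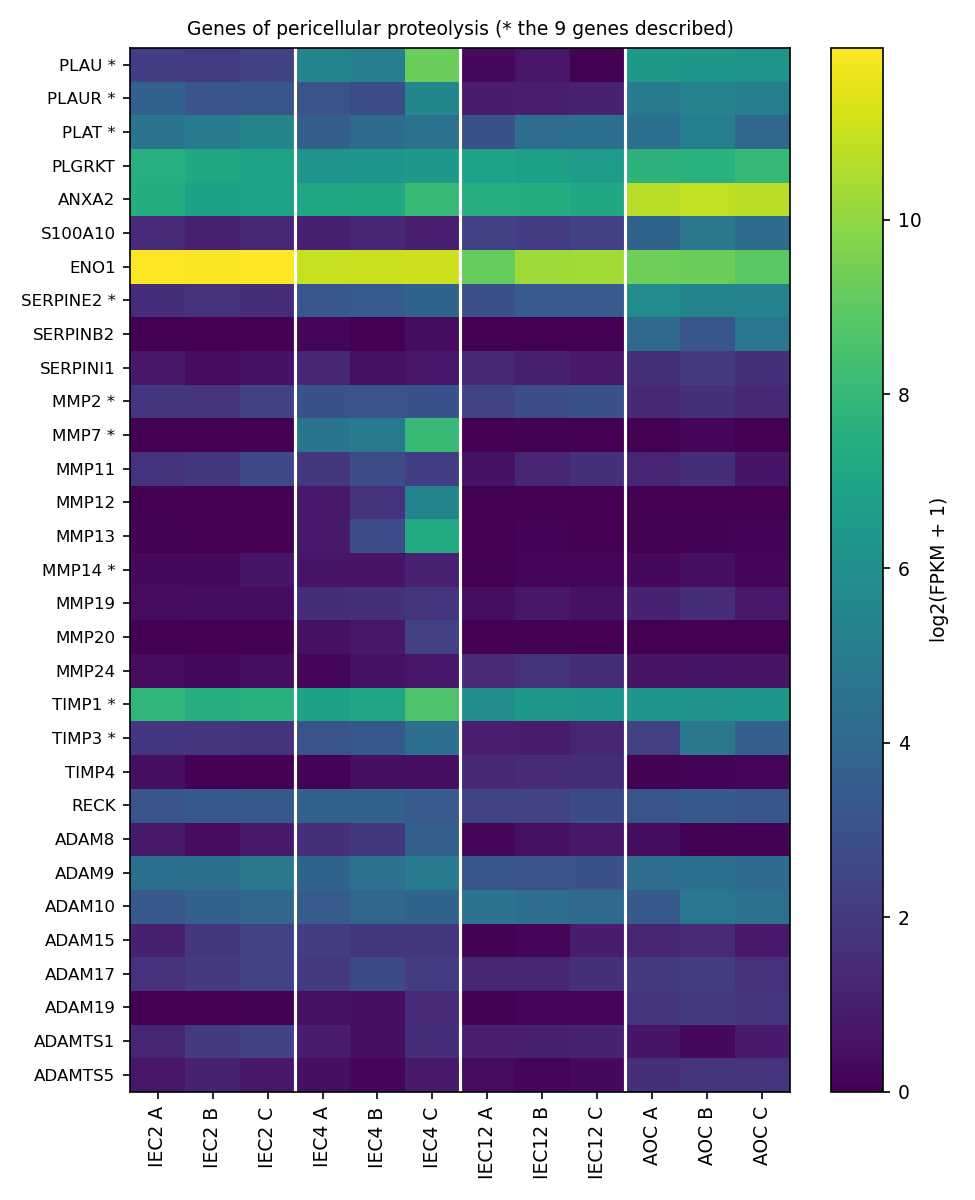
Level as log2(FPKM + 1) (colour) of the tested genes of pericellular proteolysis, with MMP12, MMP13, MMP14 and MMP20 added, in the 12 libraries (columns) by group, the 9 members marked with an asterisk. SERPINE2, SERPINB2 and ANXA2 are brightest in the AOC columns, ENO1 is brightest in IEC2, and MMP7, MMP12 and MMP13 are brightest in IEC4 replicate C.

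Among the members, the profile over the 12 libraries most like that of PLAU was TIMP3 (Pearson r of log2(FPKM + 1), 0.898), and that most like PLAUR was PLAU (0.876). MMP7 was most like MMP14 (0.843), MMP2 most like MMP7 (0.611), TIMP1 most like MMP14 (0.701), SERPINE2 most like PLAU (0.593) and PLAT most like TIMP1 (0.434). Among all genes with a symbol that were tested over the 12 libraries, those most like PLAU were ITGA5, the fibronectin receptor subunit integrin alpha 5 (0.985), RBMS2 (0.971) and ECM1, an extracellular matrix protein (0.97). ITGA5 was at 10.8, 9.98 and 26.6 FPKM in IEC4, 0.622 to 1.11 in IEC12 and 10.9 to 15.2 in AOC, and it remained first without IEC4 replicate C (0.988), followed there by ZBTB38 and IL1R1 (each 0.98) in place of RBMS2 and ECM1. Those most like MMP7 were FXYD3 (0.997), the tight junction gene CLDN4 (0.997) and PDPN (0.996), and without IEC4 replicate C they were CLDN4, SCEL and CLDN8 (each 0.998). CLDN4 was at 7.55, 7.34 and 61.1 FPKM in IEC4 and at 0.0562 at most in every other library. The 12 libraries of these correlations fall into 4 groups and share the group differences, and a gene seen only in IEC4 has a high r with MMP7 by that fact, so the values are descriptions.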

How the data were processed

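RNA of 12 libraries (3 each of AOC, IEC2, IEC4 and IEC12) had been amplified by Smart-Seq2 and sequenced. The authors ran the reads through Galaxy, and the deposited tables hold an FPKM for each gene in each library. The submitters' processing notes name Bowtie2 2.2.3, TopHat2 2.0.12, Cufflinks 2.2.1 and the pig build susScr11 (Sscrofa11.1). The FPKM unit was read from the form of the deposited tables, and any scaling between libraries is not given in the sources used here. Coordinates are those of RefSeq for Sscrofa11.1. No read counts were used, so absolute depth is unknown; from the steps of values under 0.2 FPKM, the value of 1 fragment ranged from 0.728 to 1.34 relative to AOC replicate A.

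Genes that reached an FPKM of 1 in 3 or more libraries were tested with limma 3.58.1 (R 4.3.3) on log2(FPKM + 1), with the variance tied to mean expression and Benjamini-Hochberg adjustment over all genes tested (10542 in the 9 IEC libraries, 11053 in all 12). The IEC stages were compared with each other in the smaller fit, and AOC was compared in the larger one. Calls needed an adjusted p under 0.05. The code was tested on simulated data. A fit with the replicate letter as a block was an alternative, since 2 of 18 pairs of same-lettered libraries had correlated deviations above 0.1 (r from -0.514 to 0.246) and the letters were not taken to pair libraries. The genes named are the 9 members, up to 5 of the listed genes with the largest called changes in each comparison, those highest in level, and the 3 genes most like PLAU and MMP7. Genes named outside this rule, MMP9, MMP12, MMP13, MMP20, PLG, CAMK2G, SYN1, SYN3, TUBB, markers of cell types and the neighbours of MMP7, were chosen after their values were seen. A gene of the wider list is not reported here. The members and gene lists were chosen with earlier results of these data known. Python 3.11.15, pandas 2.3.3 and matplotlib 3.10.9 were used for the rest.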

Additional observations from a re-analysis of the deposited data

How the results depend on the processing

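Of 356 values of the tested members under alternatives, 329 kept their direction and side of the threshold, 13 lost a call, 10 gained one and 4 changed sign. Those 4 were TIMP1 in IEC4 against IEC2 (0.18 without IEC4 replicate A and 0.08 without IEC4 replicate B), PLAUR in IEC4 against IEC2 (-0.47 without IEC4 replicate C) and TIMP1 in AOC against IEC12 (-0.10 without IEC12 replicate A). With 1 library left out, these differences ranged from -0.69 to 0.18, from -0.47 to 0.92 and from -0.10 to 0.17. Among the other named genes, ANXA2 in IEC12 against IEC4 changed sign from -0.12 to 0.12 after median-of-ratios scaling and to 0.21 without IEC4 replicate C.

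The study set its limits on log2 fold changes of iPS cells against AOC, a contrast not made here. With limits of the same size on the log2(FPKM + 1) scale (unadjusted and adjusted p under 0.001 and a log2 difference above 3) the members called were 0 in IEC4 against IEC2, 0 in IEC12 against IEC2, 2 in AOC against IEC2 and 1 in AOC against IEC12. The other listed genes called were 0, 0 (also 0 in IEC12 against IEC4), 2 and 2. Both counts of 2 were of ANXA2 and SERPINB2, the latter admitted by the filter through AOC alone. The share of all genes that met these limits was not computed, so these counts are not a result about the genes. With 1 library left out, the members called numbered 3 to 4, 3 to 6, 5 to 6 and 4 to 4 in these comparisons (3, 5, 6 and 4 with all), the 3 in IEC12 against IEC2 without IEC2 replicate B. The other listed genes called numbered 1 to 4 in IEC4 against IEC2, 7 to 11 in IEC12 against IEC4, 5 to 10 in IEC12 against IEC2, 9 to 12 in AOC against IEC2 and 9 to 14 in AOC against IEC12. A gene that no longer passed the filter when a library was left out was not tested and is not in that fit's count. With the replicate block, the members called were 4, 5, 6 and 4. Of the tested members it changed the call of PLAT in IEC4 against IEC2 alone (limma, adjusted p = 0.0118).

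Median-of-ratios scaling moved the median log2 difference of all genes from 0.20 to -0.03 in IEC4 against IEC2, from -0.15 to 0.06 in IEC12 against IEC4, from -0.20 to -0.01 in AOC against IEC2 and from -0.21 to -0.01 in AOC against IEC12. At equal totals it was -0.32 in IEC12 against IEC4, -0.18 in IEC12 against IEC2 (0.03 as given) and -0.45 in AOC against IEC2. No tested member changed sign under either scaling. Absolute depth is unknown, and 3 libraries a group limit what small differences can be told apart. For these shifts the cause was not tested.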

Other observations

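MMP7 lies at one end of a cluster of metalloproteinase genes on chromosome 9 (Sscrofa11.1, 33214590 to 33616700), and its neighbours were looked at after its values were seen. The annotation of RefSeq has 8 MMP genes within 500000 bases of MMP7, itself included, over 402 kb, and 7 of them are in the tables. MMP13, a collagenase, was at 0.801, 5.75 and 154 FPKM in IEC4 replicates A, B and C and did not exceed 0.0936 in any other library. MMP12, the macrophage elastase, was at 0.738, 2.41 and 41.2 in IEC4 and at 0.027 at most elsewhere. MMP20, known from tooth enamel, was at 0.471, 0.721 and 3.89 in IEC4 and at 0.0321 at most elsewhere. MMP13 and MMP12 reached 1 FPKM in IEC4 replicates B and C and MMP20 in C alone, so none of the 3 passed the filter and none was tested. MMP1, MMP8 and MMP27 did not exceed 0.136 FPKM in any library.

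Of the 6 genes of the cluster beside MMP7, 4 had their highest value in IEC4 replicate C, 1 of them (MMP27) at a level near 0. Of the 10542 genes tested in the IEC libraries, 12.0% were highest there. None of the 6 passed the filter, so that share is over more highly expressed genes and is not a like background. The genes on either side of the cluster were not highest in IEC4 replicate C: YAP1 was at 52.1, 54.1 and 49.1 FPKM in IEC4, BIRC3 at 13.9, 11.2 and 9.08, and DCUN1D5 at 30.7, 26.8 and 26.2. MMP9, which encodes gelatinase B and lies outside the cluster, did not exceed 0.333 FPKM in any library.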
